A study of Mus musculus with 6 samples.

Results

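T cells of the mouse lung at postnatal day 21 were taken as the barcodes that the authors' deposited annotation classed as T Cell. There were 2602 of them among 33061 classed barcodes in 4 day 21 libraries, and 55882 classed barcodes in all 6 libraries of the study. The 2 day 1 libraries held 0 barcodes of that class. The mice were wild-type C57BL/6N. In the hyperoxia groups newborn pups were kept in 95% oxygen (day 1 to 5) and then recovered in room air until day 21, while the control pups were kept in room air (21% oxygen) all along. The perfused lungs were dissociated with enzymes and sorted for live cells, and RNA was counted as unique molecular identifiers (UMIs) with droplet 3-prime chemistry. Each library was made from the pooled lungs of 3 mice of 1 sex. The day 21 libraries were female room air, female hyperoxia, male room air and male hyperoxia, and values below follow that order unless stated. No combination of sex and treatment had a second pool, so intervals for single libraries cover counting error only. Spread between pools of the same sex and treatment could not be measured. In the fit across sexes it cannot be told apart from a different response of the sexes.

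T cells recognise peptide on other cells through a T cell receptor, whose signal runs through the Cd3 chains, and they leave the thymus as CD4 or CD8 cells. Naive T cells carry the homing receptor Ccr7 and the transcription factors Lef1 and Tcf7 and circulate between blood and lymph nodes. After antigen they become effector and memory cells, many of which lower these genes, raise Cd44 and S100a4 and can stay in tissues such as the lung.

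The libraries held 184, 815, 882 and 721 T cells with 2939943, 9600753, 9794326 and 7432922 UMIs. The median T cell had 15432, 11171, 10610 and 9735 UMIs. The female room air library stood apart from the other 3. It held the fewest T cells and those with the highest median depth, and the memory, regulatory T and cycling gene lists each summed to more in its T cells than in any other library. In this library 5 T cells held 52.8% of the cycling list UMIs, 31.2% of the regulatory T list UMIs and 11.15% of the memory and effector list UMIs. Female room air is 1 of only 2 room air libraries, so each result that rests on it is given with the other libraries' values beside it. No T cell barcode was shared between libraries. Scrublet called 7, 15, 1 and 20 of the T cells doublets.

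The label T cell was checked against its defining genes. A UMI of Trac, Trbc1 or Trbc2, the constant regions of the αβ receptor, was found in 100% of the T cells of every library, and a UMI of a Cd3 gene in 99.5%, 99.9%, 100% and 100%. Cd3e, a signalling chain of the receptor, stood at 441, 448, 476 and 428 CPM in T cells (UMIs scaled to a common total per library's T cells), against 8.03 to 26.9 CPM in B cells. Lef1 stood at 966, 1350, 1274 and 1314 CPM, against 101 to 172 CPM in the class that the authors named T Reg. Ncr1, a receptor of natural killer cells, reached at most 1.74 CPM in T cells and 271 to 660 CPM in the NK class. Cd79a, a chain of the B cell receptor, was at 2.69 to 5.78 CPM in T cells and 1925 to 3216 CPM in B cells. The label therefore held by these markers. Receptor genes were also found outside the class: the NK class had 143 to 282 CPM of Cd3e, and the T Reg class had 289 to 336 CPM. The T Reg class also carried 172 to 455 CPM of Trdc, the δ receptor chain, and 308 to 385 CPM of Il1rl1, the IL-33 receptor of type 2 lymphocytes, while T cells had 13.3 to 20.8 CPM of Trdc.

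Marker genes of other cell types were also counted in T cells, at levels and with a spread over cells that differed between lists. The 5 neutrophil markers summed to 554.8, 367.3, 48.5 and 844.4 CPM, and in the libraries other than male room air the 5 T cells with most of it held 87.6%, 81.6% and 63.8%. The 7 myeloid markers summed to 102, 72.2, 45.8 and 63.9 CPM, the 6 endothelial markers to 396, 411, 349 and 444 CPM, the 6 epithelial markers to 85.0, 84.7, 86.9 and 126 CPM, and the 5 fibroblast markers to 1.36, 2.71, 3.57 and 4.71 CPM. A UMI of an endothelial marker was found in 88.0%, 91.0%, 89.6% and 92.5% of T cells. Whether the endothelial markers were transcribed in T cells or came from other cells was not tested. The neutrophil sum was lowest in male room air, and its part in the results below was not tested.

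T cells made up 2.16% of classed cells in female room air (exact binomial 95% interval 1.86 to 2.49), 9.75% in female hyperoxia (9.12 to 10.4), 12.5% in male room air (11.7 to 13.3) and 7.91% in male hyperoxia (7.36 to 8.48). The share was thus 7.59 percentage points higher after hyperoxia in females and 4.56 points lower in males. Of immune cells alone, T cells were 3.72%, 20.4%, 20.2% and 19.3%, so that 3 libraries lay close together and female room air lay far below them. Of the T, T Reg, B and NK classes together they were 30.3%, 46.8%, 57.7% and 52.0%. B cells and NK cells were low in the same library: B cells were 1.29%, 4.02%, 3.31% and 1.55% of classed cells and NK cells 0.964%, 3.73%, 4.14% and 2.33%, while the T Reg class was 2.71%, 3.33%, 1.68% and 3.42%. Immune cells as a whole were 58.1%, 47.7%, 61.8% and 41.0% of classed cells, a change in denominator that the shares of immune cells do not carry. With 2 libraries on each side, the smallest p that an exact permutation test allows is 0.333 (two-sided), so such a test of the shares could not pass the threshold, and no other test of them was run. In dissociated tissue a share of cells also depends on how well each type was released and captured, which was not tested.

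**Figure D1:**
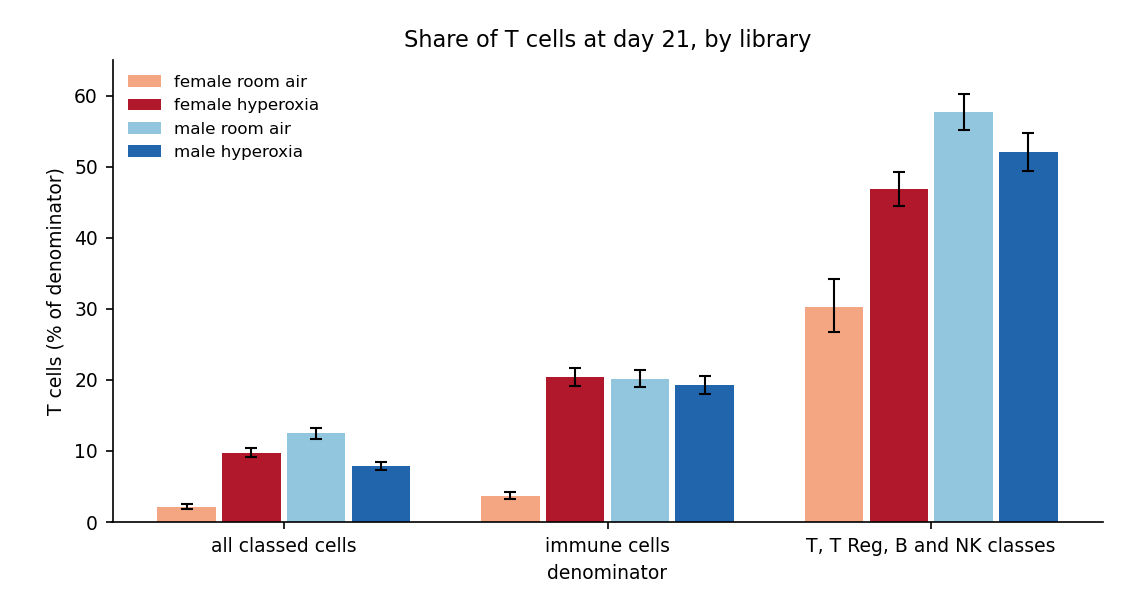
Share of T cells at day 21 in each library, as a percentage of all classed cells, of immune cells, and of the T, T Reg, B and NK classes together; bars are single libraries and lines are exact binomial 95% intervals. Female room air is lowest with each denominator (2.16%, 3.72% and 30.3%), and the other 3 libraries lie between 19.3% and 20.4% of immune cells.

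CD4 cells, which help other immune cells, and CD8 cells, which kill infected ones, were told apart by UMIs of Cd4 and of Cd8a or Cd8b1. CD4 only cells were 37.0% (interval 29.97 to 44.4), 43.9% (40.5 to 47.4), 45.8% (42.5 to 49.2) and 45.4% (41.7 to 49.1) of T cells. CD8 only cells were 41.9% (34.6 to 49.3), 40.4% (37.0 to 43.8), 31.6% (28.6 to 34.8) and 31.8% (28.4 to 35.3). Both female libraries therefore held more CD8 only cells than both male libraries, by 9.42 points on average, whereas within a sex the hyperoxia and room air shares differed by −1.48 points in females (counting interval −9.69 to 6.53) and 0.13 points in males (−4.53 to 4.81). Cells with both markers were 2.17%, 4.17%, 7.48% and 3.88%, and cells with neither were 19.0%, 11.5%, 15.1% and 19.0%. Counted with or without Cd4, cells with a Cd8a or Cd8b1 UMI were 44.0%, 44.5%, 39.1% and 35.6%, a smaller gap between the sexes than for CD8 only cells. In B cells, which should lack these genes, 0% to 1.71% were CD4 only and 0.909% to 2.14% CD8 only, at median depths of 7311 to 10854 UMIs.

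Thinning the cells moved the CD4 share more than the CD8 share. Cd4 itself was at 82.3, 108, 115 and 113 CPM, Cd8a at 124, 128, 112 and 105 CPM and Cd8b1 at 366, 383, 359 and 324 CPM. Zbtb7b, the factor that sets the CD4 lineage, was at 18.4, 20.3, 19.0 and 22.6 CPM. With every cell thinned to 5000 UMIs the CD4 only share was 25.0%, 32.3%, 37.3% and 36.7% and the CD8 only share 41.9%, 40.3%, 31.7% and 31.5%. Thinning left out 0, 4, 7 and 10 T cells. At both depths the 2 female libraries had the higher CD8 only shares, and the 2 male libraries lay within their counting intervals of each other.

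Naive T cells were the largest group in 3 of the 4 libraries. Cells with a Ccr7 UMI and no UMI of Ccl5, S100a4, Cxcr6 or Nkg7 were 20.7% (interval 15.05 to 27.2), 46.7% (43.3 to 50.2), 54.1% (50.7 to 57.4) and 55.1% (51.35 to 58.7). Memory-marked cells, with the reverse pattern, were 28.3% (21.9 to 35.35), 6.99% (5.34 to 8.97), 4.65% (3.36 to 6.25) and 6.10% (4.47 to 8.11). By the rule of the gate, a memory cell with a Ccr7 UMI is not counted among them. Cells with markers of both kinds were 45.1%, 41.0%, 34.6% and 32.9%, and cells with neither 5.98%, 5.28%, 6.69% and 5.96%. In females the naive share was 26.1 points higher after hyperoxia (counting interval 18.7 to 32.7) and in males 0.98 points higher (−4.005 to 5.96), and female room air lay below the other 3 libraries. A gate without Nkg7, a granule protein gene found in many CD8 cells, was chosen after the values were seen and put 29.3%, 64.3%, 69.95% and 68.9% of T cells in the naive-marked group and 27.7%, 5.28%, 3.17% and 4.85% in the memory-marked group. Female room air was again the lowest library in naive-marked cells and the highest in memory-marked cells.

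Female room air was the lowest library in naive-marked cells within CD4 cells and within CD8 cells too. Of CD4 only cells, 41.2%, 77.9%, 80.4% and 80.4% were naive-marked and 29.4%, 3.63%, 2.48% and 2.45% memory-marked. Of CD8 only cells, 2.60%, 5.17%, 5.38% and 6.55% were naive-marked by the first gate, in which a single Nkg7 UMI removes a cell. With Nkg7 not used, 20.8%, 45.9%, 50.9% and 48.9% were naive-marked, and 67.5%, 44.4%, 42.3% and 41.5% held markers of both kinds. With cells thinned to 5000 UMIs the naive-marked share of all T cells by the first gate was 23.9%, 44.8%, 49.6% and 50.9%, and the memory-marked share 38.0%, 14.2%, 9.94% and 12.9%. The memory-marked share was thus higher after thinning, and by the rule of the gate a cell that loses its Ccr7 UMIs can enter that group.

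B cells carry Ccr7 too, so they give no background for the naive gate. A Ccr7 UMI also keeps a B cell out of the memory-marked group. The B cell shares below are therefore lowered by the rule of the gate and are no full background for memory-marked cells either. Without Nkg7, 5.45%, 2.38%, 2.56% and 2.13% of B cells were memory-marked. The T cell share of 27.7% in female room air lay above the B cell share of that library with no overlap of the counting intervals, whereas in the 3 other libraries the T cell shares were higher than the B cell shares with overlapping intervals. Thinned to 5000 UMIs, by the first gate, B cells were at 5.77%, 2.85%, 3.60% and 7.09%, below the T cells of every library.

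**Figure D2:**
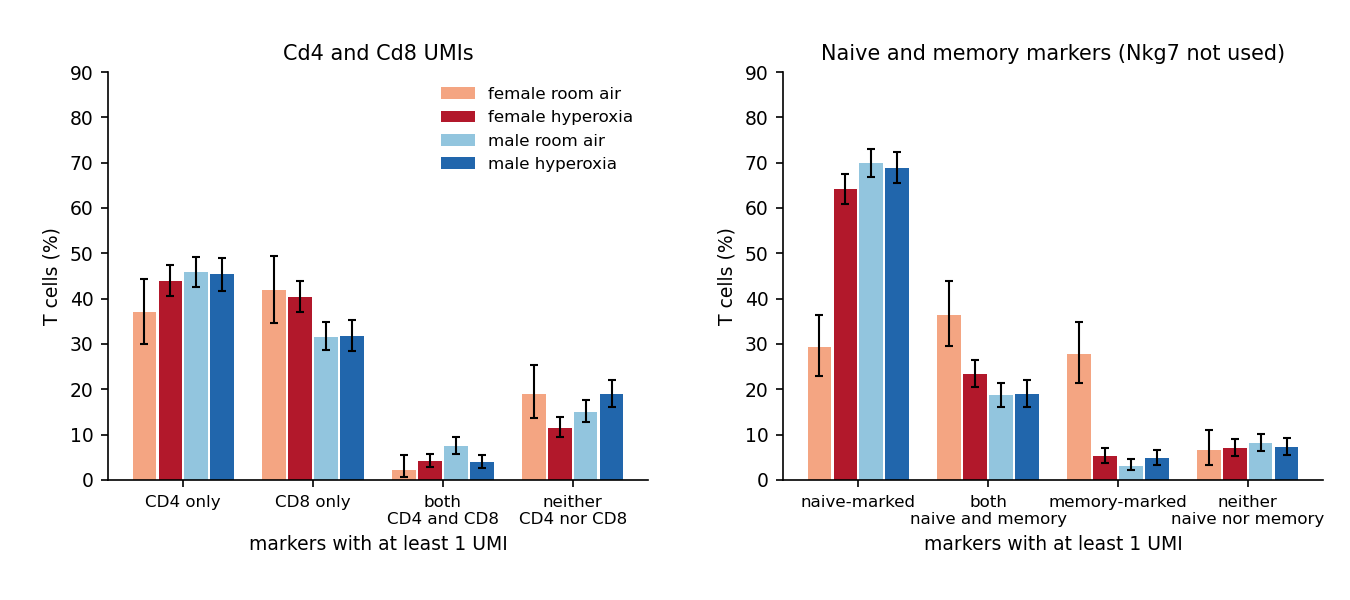
Make-up of T cells in each library by single UMIs: CD4 and CD8 (left) and naive and memory markers with Nkg7 not used (right); bars are percentages of the library's T cells and lines are exact binomial 95% intervals. Both female libraries have about 40% CD8 only cells (41.9% and 40.4%) against 31.6% and 31.8% in males, and female room air has 29.3% naive-marked cells against 64.3% to 69.95% elsewhere.

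Single marker genes showed which part of the programme differed. Of the naive list, Igfbp4, an IGF-binding protein gene of naive CD4 cells, was at 96.6, 275, 276 and 263 CPM. Dapl1 was at 157, 276, 281 and 262 CPM, and Klf2, the factor that drives lymph node homing, at 620, 1060, 1125 and 1116 CPM. These 3 genes were low in female room air only and nearly equal in the other libraries. Ccr7 was at 219, 307, 306 and 305 CPM and Il7r, the receptor for the survival cytokine IL-7, at 885, 918, 857 and 957 CPM. Ccr7 was thus lowest in the same library, while Il7r varied little in all 4. The 11 naive genes summed to 6291, 8423, 8365 and 8486 CPM.

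Memory and effector genes ran the other way and spread further. S100a4, a calcium-binding protein gene of memory cells, was at 297, 30.5, 10.5 and 47.1 CPM, and S100a6, a gene of the same family, at 411, 82.3, 18.3 and 94.6 CPM. Both were highest in female room air and lowest in male room air, with the hyperoxia libraries between them. Ccl5, a chemokine of memory CD8 cells, was at 429, 255, 140 and 234 CPM, Cd44, an adhesion receptor raised after activation, at 146, 78.3, 42.0 and 66.5 CPM, and Il2rb, a chain of the IL-2 and IL-15 receptor, at 219, 116, 65.5 and 85.7 CPM. For these 3 genes too, female room air was highest and male room air lowest. Tbx21 and Eomes, factors of effector and memory cells, were at 27.2, 7.39, 3.27 and 3.50 CPM and at 27.2, 13.5, 9.70 and 8.74 CPM. The 20 genes of the list summed to 3678, 1703, 1216 and 1581 CPM. The granzyme genes of the list were sparse, with Gzmb at 0.680, 1.04, 0.204 and 0.942 CPM and Gzmk at 0, 1, 4 and 1 UMIs, whereas Nkg7 was at 357, 261, 231 and 199 CPM.

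**Figure D3:**
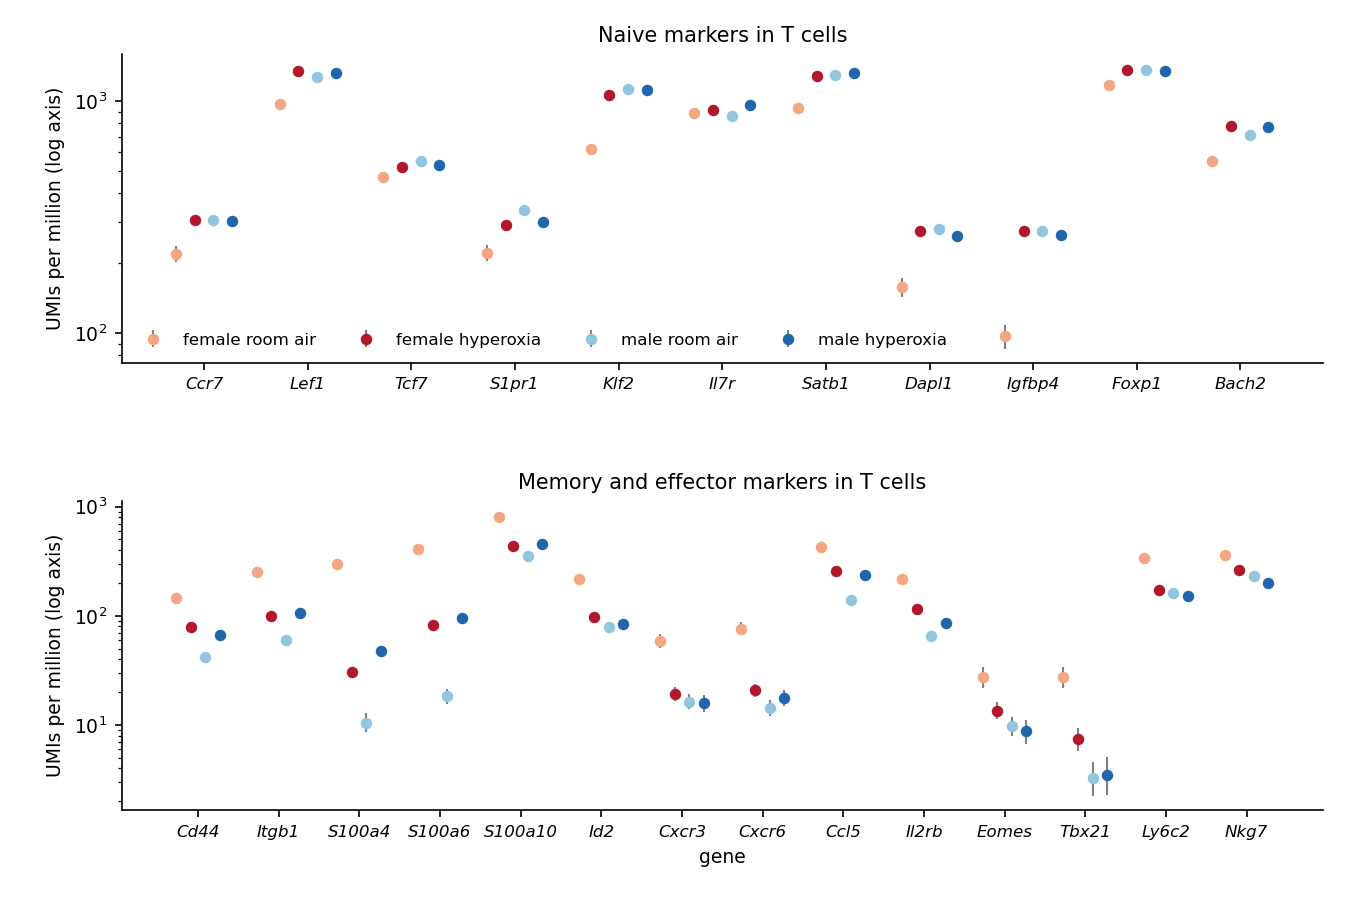
CPM in T cells for 11 naive markers (top) and 14 memory and effector markers (bottom) in each library, on log axes; points are single libraries and lines are exact Poisson 95% intervals. For S100a4 and S100a6 female room air is highest (297 and 411 CPM) and male room air lowest (10.5 and 18.3 CPM).

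Several genes of subsets outside the naive pool were also found most often in female room air, which is the library with the deepest T cells. Foxp3, the factor of regulatory T cells, was found in 7.61% (interval 4.22 to 12.4), 3.804% (2.60 to 5.36), 3.29% (2.21 to 4.69) and 5.13% (3.64 to 7.004) of T cells, so the intervals overlapped, and in 5.43%, 2.47%, 2.40% and 3.66% with cells thinned to 5000 UMIs. Ikzf2, which most thymus-derived regulatory cells carry, was at 609, 173, 91.2 and 188 CPM. Zbtb16, the factor of innate-like T cells, was found in 19.6% (interval 14.1 to 26.0), 4.05%, 3.29% and 4.02% of T cells and in 15.2%, 2.59%, 1.83% and 2.39% after thinning. Zbtb16 was found in 10.0%, 12.2%, 6.84% and 32.6% of B cells, so it was less frequent in T cells than in B cells in each library except female room air. A constant gene of the γ receptor chain was found in 19.6%, 4.66%, 2.83% and 4.30% of T cells. The δ chain Trdc was found in 5.43%, 4.66%, 3.97% and 3.88%, which differed by less than the counting intervals. Mki67, a gene of dividing cells, was found in 15.2% (10.4 to 21.2), 4.91%, 1.93% and 3.47%. Genes of the Th17 type were concentrated in female room air: Il17a had 17, 0, 0 and 0 UMIs, and Il23r, the receptor that sustains Th17 cells, was at 25.9, 0.729, 0.817 and 1.75 CPM. In that library 5 T cells held 56.7% of the Th17 list UMIs. Il13, a cytokine of type 2 lymphocytes, had 0 UMIs in T cells of every library. Itgae, an integrin of the tissue residence list, was at 64.6, 54.6, 33.9 and 36.9 CPM, higher in both female libraries than in both male ones. The CD8 only share was higher in the female libraries too, and Itgae was a leading gene of CD8 only clusters described below.

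A clustering of the 2602 T cells gave 16 clusters, which serve here only to place these subsets, since the genes that define them also differ between libraries. A regulatory T-like cluster of 193 cells had Ctla4, Ikzf2, Il2ra and Foxp3 among its 10 leading genes, beside the memory genes S100a4, Itgb1 and S100a6. At a finer resolution (1.5) there were instead a cluster of 150 cells led by S100a4 and Itgb1, with Ctla4 and Ikzf2, and a cluster of 47 cells led by Il2ra and Foxp3, so the name depends on the resolution. A memory-like cluster of 227 cells was led by Ccl5, Ccl4 and Xcl1 with Ly6c2 and Il2rb, and 89.9% of its cells were CD8 only. Its natural killer list was raised 8.18-fold and its memory and effector list 3.63-fold. By the first gate 0% of its cells were naive-marked and 18.9% memory-marked, with Ccr7 at 205 CPM. The memory-marked shares therefore leave out most cells of this cluster. A cluster of 42 cells led by Zbtb16 was left without a name, as was a cluster of 160 cells led by the interferon-induced genes Ifit1, Isg15 and Ifit3. A cluster of 44 cells was also left without a name, since its 10 leading genes held the thymocyte genes Arpp21, Dntt and Rag1 beside the cycling genes Pclaf, Stmn1, Mki67, Top2a and Uhrf1. At the finer resolution there was a cluster of 37 cells led by cycling genes, 83.8% of them CD8 only, and a separate cluster of 29 cells with the 3 thymocyte genes among its leading genes. Clusters of 11, 20 and 33 cells were led by myeloid, neutrophil and endothelial-type genes, and 11, 19 and 11 of their cells were called doublets. Of the remaining cells, 2 clusters (326 and 296 cells) were 98.5% and 95.6% CD8 only, and the other clusters were mostly CD4 only with 82.1% to 89.1% naive-marked cells.

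Receptor variable genes were sampled in a minority of cells. A Trbv gene was found in 36.4%, 29.0%, 31.4% and 24.6% of T cells and a Trav gene in 24.5%, 26.6%, 28.2% and 26.6%. The effective number of Trbv genes (the inverse Simpson index) was 12.7, 17.1, 18.0 and 16.3. The leading Trbv gene was Trbv19 in female room air, in 12 of 67 cells with any, and Trbv13-2 or Trbv12-2 in the other libraries, at 11.4% to 13.6% of cells with any. The female room air value came from 67 cells against 177 to 277 in the other libraries, and the index was not adjusted for the number of cells.

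Hyperoxia was compared with room air over the 4 libraries with sex as a covariate, on UMIs summed per library over T cells. The quasi-likelihood test of edgeR called 0 of 12089 genes (0% at an adjusted p under 0.05), and 172 genes (1.42%) had an unadjusted p under 0.05. DESeq2 called 1 gene (0.00827%), Xcl1. Without the female room air library, which leaves male room air as the only control and no term for sex, 321 of 12760 genes were called (2.52%), 230 higher and 91 lower. Without male room air 916 genes were called. Such a fit assumes that the lone control library varies like the others. Over all genes tested 56.9% changed in opposite directions in the sexes, 20.8% were higher after hyperoxia in both and 22.3% lower in both.

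Of the 18 memory and effector genes tested, 13 changed in opposite directions in the sexes (56.9% of all genes tested did), 5 were lower in both (22.3% of all genes) and 0 higher in both (20.8%). The count lower in both was near its share over all genes, while the count of opposite changes was above its share and the count higher in both below. No test of these counts was run, and the sizes of the changes are given here as a description. Their median log2 change was −1.01 in females and 0.22 in males (CPM plus 1), and −0.33 in the fit, where the median over all genes was −0.003. S100a4 changed by −3.24 in females and 2.06 in males, and S100a6 by −2.31 and 2.31. The 11 naive genes had a median of 0.48 in females and −0.0045 in males, 0.26 in the fit, and none was lower in both sexes. S100a4 had a fitted log2 change of −0.73 (SE 1.39, edgeR adjusted p 1) with all libraries and 1.79 (edgeR adjusted p 0.00012) without female room air, but −2.85 (edgeR adjusted p 2.48e-06) without male room air. It was thus called in opposite directions depending on which control library was kept. Igfbp4 had 0.70 (SE 0.41, edgeR adjusted p 1) with all libraries, −0.11 (edgeR adjusted p 0.509) without female room air and 1.58 (edgeR adjusted p 4.09e-06) without male room air. Of the 5 regulatory T genes 4 moved in opposite directions, with Ikzf2 at −1.81 in females and 1.03 in males. The term for different responses in the sexes leaves no residual degree of freedom with 4 libraries, so these opposite changes were not tested.

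**Figure D4:**
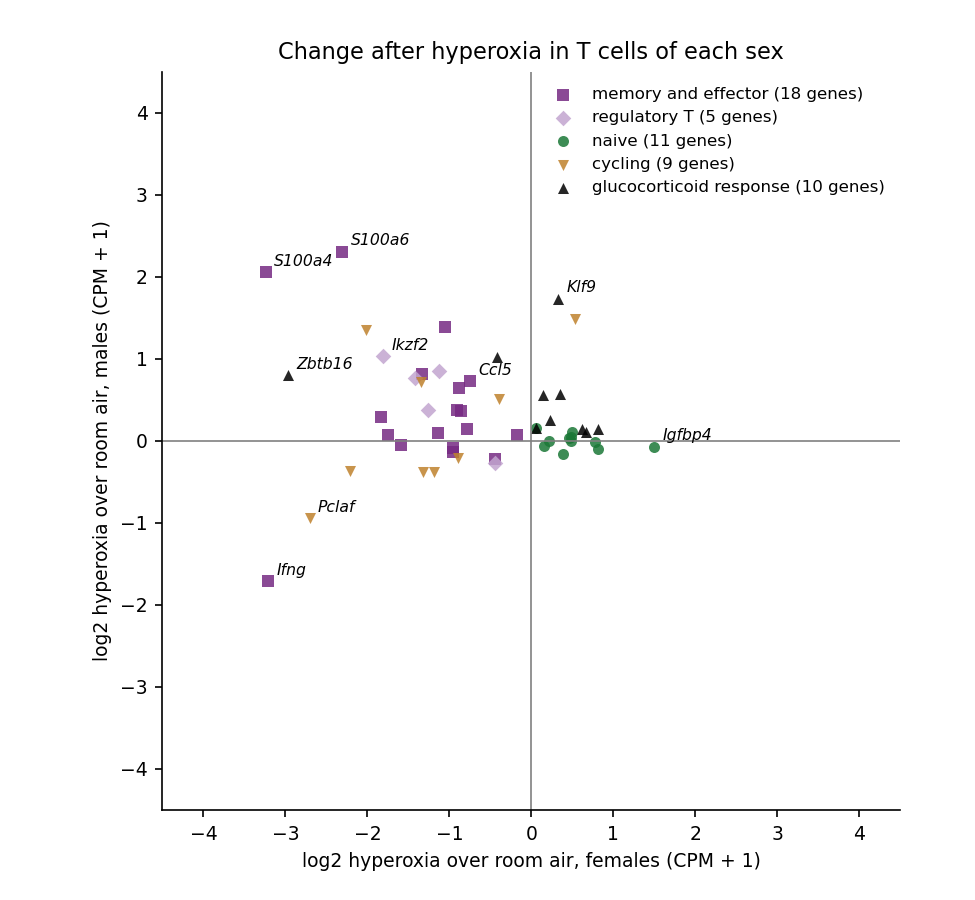
Log2 change after hyperoxia in females (x axis) and males (y axis) for genes of 5 lists in T cells, on CPM plus 1; each point is a gene. Memory and regulatory T genes lie mostly left of 0 and above 0, naive genes right of 0 and near 0 on the male axis, and most glucocorticoid response genes right of 0 and above 0.

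Within the T Cell class, several genes of immature and dividing cells were lower after hyperoxia in both sexes and did not pass the test. The authors also named a separate class Prolif T Cells, which is not counted here. It held 21, 24, 1 and 10 of 8510, 8358, 7074 and 9119 classed barcodes, so the values below do not measure all dividing T cells. Rag1, an enzyme that cuts receptor genes in the thymus, was at 9.86, 0.937, 9.29 and 3.23 CPM (log2 change −2.33, SE 0.53, edgeR adjusted p 1), and Arpp21, another thymocyte gene, at 29.6, 1.15, 25.9 and 17.1 CPM. In each sex the room air library was higher. Of the 5 thymocyte genes tested, 4 were lower in both sexes and had an unadjusted p under 0.05 by edgeR, and Cd1d1 was the other. Over all genes tested 22.3% were lower in both sexes and 1.42% had an unadjusted p under 0.05 in either direction. These genes came from few cells: 4, 1, 9 and 5 T cells held UMIs of at least 2 of Rag1, Rag2, Dntt, Ptcra and Arpp21, and 55.1% of the Arpp21 UMIs of male hyperoxia were in 1 cell. Of the 9 cycling genes tested, 5 were lower in both sexes with an unadjusted p under 0.05, and 1, Ccnb2, was higher in both with an unadjusted p under 0.05. The other 3 moved in opposite directions in the sexes. The 10 genes of the cycling list summed to 323, 123, 107 and 102 CPM, with counting intervals that overlapped between the male libraries. Mki67 was found in 15.2%, 4.91%, 1.93% and 3.47% of T cells, so in males it was more frequent after hyperoxia. Pclaf, a factor bound to replication forks, was at 53.1, 7.29, 4.29 and 1.75 CPM (log2 change −2.26, SE 0.39, edgeR adjusted p 1), and with female room air left out the change was 0.06, against −3.37 with male room air left out. Top2a, a topoisomerase of dividing cells, was at 44.9, 17.3, 14.0 and 10.5 CPM. Female room air again held the most, and its distance from male room air was larger than the difference within males. Ccnb2, a cyclin of mitosis, was at 2.72, 4.38, 2.25 and 8.07 CPM (log2 change 1.34, unadjusted edgeR p 0.0308).

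By the rule for naming genes, 63 genes were higher and 82 lower after hyperoxia in both sexes with an unadjusted p under 0.05 by edgeR and at least 20 UMIs in each library of the higher side; none was called. Among the 10 with the largest upward log2 change were Gucy1a1, a subunit of the nitric oxide receptor, at 0.340, 4.58, 1.12 and 8.34 CPM (log2 change 3.05, SE 0.52), and Mfap4, an extracellular matrix gene, at 0.340, 2.29, 0.817 and 4.98 CPM. Retnlg, a neutrophil gene, was at 15.7, 20.4, 2.55 and 58.4 CPM, and Hdc, which makes histamine, at 9.86, 13.3, 1.02 and 17.0 CPM. The others were Cstdc4, Slc40a1, Sgms2, Nes, Pde7b and Gpr141. For 9 of these 10 genes 1 cell held 28.1% to 56.8% of the UMIs in a hyperoxia library, and for Nes, an intermediate filament gene, 12%. Retnlg is also one of the 5 neutrophil markers, whose sum was 555, 367, 48.5 and 844 CPM, higher after hyperoxia in males and lower in females, and the part of neutrophil RNA in the result was not tested. With the doublets left out, the log2 changes of Retnlg and Hdc were −0.31 and −0.75. In fits on part of the T cells that kept the doublets, Retnlg was called in 4 (3.56 to 5.06) and Hdc in 3 (3.27 to 3.58).

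The 10 largest downward changes, none called, included some genes of activated cells. Ifng, the cytokine interferon gamma, was at 16.0, 0.833, 4.90 and 0.807 CPM. Xcl1, a chemokine of activated CD8 and NK cells, was at 86.7, 18.3, 32.7 and 2.69 CPM (log2 change −2.71, SE 0.35, edgeR adjusted p 1, DESeq2 adjusted p 2.74e-07). Leaving out 1 library moved the change of Xcl1 to −1.63 without female room air, −1.63 without male hyperoxia and −4.37 without female hyperoxia. Penk, the precursor of enkephalins, was at 12.2, 0.104, 2.25 and 0 CPM, and Egr3, an early response factor, at 15.7, 1.04, 2.76 and 1.35 CPM. In each room air library a single T cell held 50% to 94.1% of the UMIs of these 4 genes. For Xcl1 a single T cell also held 88.6% in female hyperoxia. The others were C77080, 2600014E21Rik, Rag1, Pclaf, Brca1 and Arpp21. 2600014E21Rik was at 73.1, 5.31, 10.9 and 4.98 CPM with no more than 23.7% in 1 cell. The activation and early response list went both ways. Of its 12 genes tested, 3 were higher in both sexes (20.8% of all genes tested), 4 lower in both (22.3%) and 5 opposite (56.9%). Nr4a2 was among those lower in both (log2 change −0.81, unadjusted edgeR p 0.0353). A single T cell held 54% of its UMIs in female room air and 41.0% in male room air, and its change had the other sign in CD4 only cells. The 13 genes of the list summed to 885, 915, 653 and 904 CPM, higher after hyperoxia in each sex.

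Slc15a2, which encodes a transporter of small peptides (GRCm38, chromosome 16, 36750177 to 36784962, minus strand), was followed because it was among the genes that rose in several lung cell classes in earlier results of these data, so its choice is no independent support. It was at 9.52 CPM in female room air, 31.5 in female hyperoxia, 10.0 in male room air and 37.5 in male hyperoxia. The hyperoxia libraries did not overlap the room air libraries, which was so for 27% of all genes tested. UMIs of Slc15a2 were found in 8.70%, 20.7%, 7.60% and 24.7% of T cells, and no cell held more than 14.3% of a library's UMIs. Its log2 change was 1.82 (SE 0.18, unadjusted edgeR p 0.0001, edgeR adjusted p 1), 1.63 in females and 1.81 in males. It was not called in the fit on all T cells, and the log2 change was between 1.28 and 2.11 in the 18 other fits, with adjusted p from 6.35e-12 to 1. The smallest of these came from the edgeR fit with no filter on low counts, which used 1 common spread for all genes.

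Within T cells the rise of Slc15a2 was largest in CD8 only cells, at 8.78, 36.9, 7.999 and 36.1 CPM (log2 change 2.11, edgeR adjusted p 2.43e-06). In CD4 only cells it was at 10.8, 25.8, 12.8 and 37.9 CPM (1.44, edgeR adjusted p 0.441). The SEs were alike, at 0.28 in CD8 only and 0.26 in CD4 only cells. The fits gave unlike weight to the spread shared by all genes (prior degrees of freedom 45.5 and 6.24), so their adjusted p-values cannot be compared. Whether CD4 and CD8 cells differed in this response was not tested. In the naive-marked cells the values of the sexes were unlike: Slc15a2 was at 26.4 and 25.3 CPM in females, the room air value from 12 UMIs, and at 11.2 and 38.9 CPM in males (1.28, edgeR adjusted p 0.00427). Over 10 fits on part of the T cells Slc15a2 was called in 6, all higher. These fits share the same 4 libraries and most of their cells, so the count is a description and no independent support, and 3 of the 6 (both naive-marked groups and the fit without thymocyte and memory clusters) used 1 common spread for all genes. It was not called in CD4 only cells, with only the female cells that hold Xist (edgeR adjusted p 0.341), without the cluster of thymocyte and cycling genes (0.171) or with equal numbers of cells per library (0.9998). No other gene was called in more than 4 of these fits, and Pclaf, Retnlg, Slpi, Sparc and Xcl1 were called in 4.

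Genes that glucocorticoid hormones raise in lymphocytes were also mostly higher after hyperoxia, without passing the test. Of the 10 genes of that list 8 were higher after hyperoxia in both sexes, where 20.8% of all genes tested were, 0 were lower in both and 0 were called. Their median log2 change was 0.39, 0.28 in females and 0.41 in males, against a median near 0 over all genes. Ddit4, an inhibitor of mTOR, was at 33.7, 43.0, 35.1 and 52.7 CPM (log2 change 0.48, SE 0.13, edgeR adjusted p 1), and Klf9, a transcription factor, at 6.46, 8.33, 2.25 and 9.82 CPM (1.27, SE 0.48, edgeR adjusted p 1). The change of Klf9 was 1.93 (edgeR adjusted p 0.00425) without female room air and 0.59 (edgeR adjusted p 0.334) without male room air. For Ddit4 and Klf9 each hyperoxia library was above both room air libraries. Tsc22d3, the leucine zipper protein GILZ, was at 166, 294, 271 and 299 CPM and Txnip, a thioredoxin inhibitor, at 326, 520, 516 and 554 CPM; for these 2 genes female room air was low and the other libraries lay close together. Fkbp5, a chaperone of the hormone receptor, was at 96.9, 72.3, 48.7 and 100 CPM and moved in opposite directions in the sexes, as did Zbtb16, which this list also holds.

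The count of members higher in both sexes depended on which cells were used. It was 7 of 10 in CD4 only cells, 8 in CD8 only cells, 7 in naive-marked cells with Nkg7 not used and 6 in naive-marked cells by the first gate. Over all genes tested in those fits the share was 24.0%, 22.8%, 23.8% and 25.4%. Fkbp5 went the other way: without the clusters led by other cell types, thymocyte or memory markers it was at 43.7, 66.0, 40.2 and 86.3 CPM (log2 change 0.92, edgeR adjusted p 0.00603), so that both sexes were higher after hyperoxia. The female room air value in that fit came from 38 UMIs.

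The other lymphoid classes of the same libraries are given beside T cells. In B cells Slc15a2 was at 8.03, 29.5, 7.09 and 33.1 CPM and in NK cells at 13.1, 20.2, 4.99 and 20.9 CPM. In the T Reg class it was at 5.26, 13.5, 9.68 and 16.3 CPM. Hyperoxia libraries were above both room air libraries in each of the 4 classes, with Poisson intervals that met in the T Reg and NK classes. Klf9 was at 16.8, 60.6, 21.3 and 126 CPM in B cells, 14.7, 34.4, 17.6 and 52.4 CPM in NK cells and 76.8, 105, 68.5 and 119 CPM in the T Reg class. Fkbp5 was at 56.2, 87.9, 39.0 and 114 CPM in B cells, 158, 185.5, 107 and 220 CPM in NK cells and 264.5, 278, 147 and 354 CPM in the T Reg class. Both genes were higher after hyperoxia in each sex in these 3 classes. Tsc22d3 was at 487, 610, 604 and 519 CPM in B cells, lower after hyperoxia in males. The difference between classes was not tested, and the classes share the same mice.

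**Figure D5:**
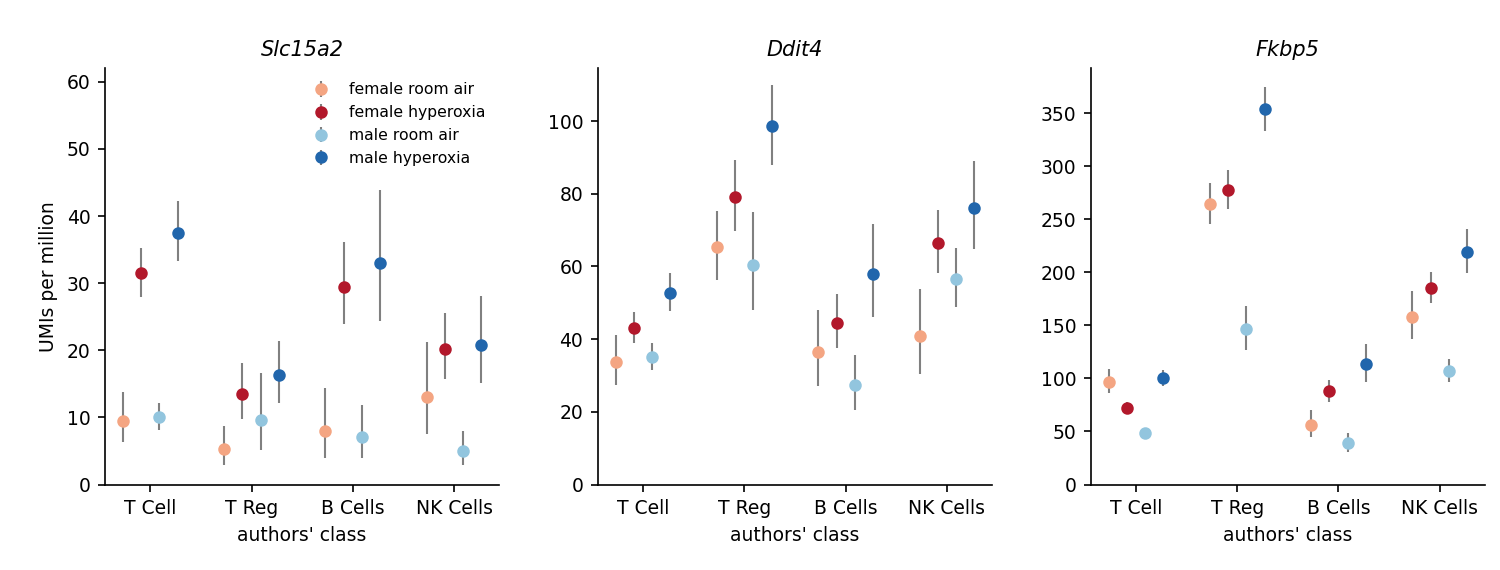
CPM of Slc15a2, Ddit4 and Fkbp5 in 4 lymphoid classes of each library; points are single libraries and lines are exact Poisson 95% intervals. Slc15a2 is higher in both hyperoxia libraries than in both room air libraries in every class, at 31.5 and 37.5 against 9.52 and 10.0 CPM in T cells, while Fkbp5 in T cells is lower after hyperoxia in females (72.3 against 96.9 CPM) and higher in males (100 against 48.7 CPM).

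The remaining pathway lists had 0 called genes by edgeR. T cell receptor signalling was even across libraries: its 20 genes summed to 6917, 7012, 6697 and 6956 CPM, with a median log2 change of 0.05 and 0 genes at an unadjusted p under 0.05. The 16 type I interferon genes summed to 1930, 1975, 2045 and 2105 CPM (median 0.03, 0 genes), and the 15 interferon gamma genes to 1212, 1291, 1317 and 1191 CPM (median −0.03, 0 genes). The 9 hypoxia genes tested had a median of 0.03 with 0 genes. In the dissociation and heat shock list the median was 0.29, and Jun, an early response factor, was at 44.2, 54.0, 31.6 and 58.5 CPM. Fos was at 103, 88.8, 39.3 and 89.2 CPM, lowest in male room air. Such genes are also known to respond to tissue handling, whose part in these values was not tested.

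Some members of other lists were higher in both hyperoxia libraries than in both room air libraries, where the sides did not overlap in either direction for 27% of all genes tested. Nfkbia, the inhibitor of NF-κB, was at 204, 272, 199 and 258 CPM (log2 change 0.41, SE 0.14), Btla, an inhibitory receptor, at 102, 139, 129 and 167 CPM (0.42, SE 0.14), and Bbc3, a p53 target that promotes cell death, at 39.5, 51.7, 46.6 and 66.7 CPM (0.46, SE 0.13). Each had an unadjusted edgeR p under 0.05 and an edgeR adjusted p of 1. Bcl2, which keeps T cells alive downstream of IL-7, was at 613, 878, 671 and 808 CPM (0.40, SE 0.18). Other members were lower in both hyperoxia libraries than in both room air libraries. Among them were Socs3 at 29.6, 25.9, 38.3 and 26.1 CPM (−0.38, SE 0.18) and Tef at 6.46, 2.81, 5.41 and 4.31 CPM (−0.73, SE 0.41). Irgm1 (−0.24, SE 0.19) and Tap2 (−0.14, SE 0.14) were too, each of the 4 with an unadjusted edgeR p above 0.05. Slc7a11, the cystine importer and a target of NRF2, was at 5.10, 7.92, 1.74 and 6.19 CPM with a log2 change of 1.24. It was −1.40 when doublets were left out, and 4.41 to 6.77 and called in CD8 only cells and in both naive-marked groups, from which doublets were not removed. The 14 antioxidant genes tested had a median of −0.03. Medians were 0.24 for 10 p53 targets, 0.08 for 14 genes of IL-7 and IL-2 signalling, −0.17 for 6 checkpoint genes, −0.22 for 13 clock genes and −0.09 for 16 trafficking genes.

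Female and male T cells were compared over the same 4 libraries with treatment as a covariate. The test of edgeR called 5 of 12089 genes (0.0414%), all of them sex-linked, and 309 genes (2.56%) had an unadjusted p under 0.05. Tsix, the antisense partner of Xist, was at 36.1, 14.4, 0.204 and 0 CPM and was higher in females (log2 change 7.55, SE 0.51, edgeR adjusted p 0.0361). Ddx3y, Uty, Eif2s3y and Kdm5d, genes of the Y chromosome, were lower in females. Uty was at 0, 0, 74.9 and 84.8 CPM and Ddx3y at 0, 0.104, 73.8 and 84.6 CPM. Xist and Tsix overlap on opposite strands, and whether the counting used strand is not given in the sources used here, so reads of the pair may not be told apart. Without female room air 7 of 12760 genes were called (0.0549%).

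Xist, the RNA that silences the second X chromosome, was at 666, 347, 0 and 1.61 CPM and did not pass the threshold (edgeR adjusted p 0.0771). It was found in 92.9% of T cells of female room air but in 55.8% of female hyperoxia, at median depths of 15432 and 11171 UMIs. A Y-linked gene was found in 0%, 0.245%, 82.3% and 84.3% of cells. Within female hyperoxia, the 455 T cells with Xist and the 360 without had 44.0% and 43.9% CD4 only cells, 40.0% and 40.8% CD8 only cells and 47.5% and 45.8% naive-marked cells, with median depths of 11267 and 10971 UMIs. Their make-up differed by less than the counting intervals.

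Outside the sex chromosomes edgeR called no gene between the sexes. DESeq2 called 5 genes (0.0414%), which were Tsix, Ddx3y and Kdm5d and, higher in females, Pclaf (DESeq2 adjusted p 0.00145) and Xcl1 (DESeq2 adjusted p 0.0165). A single T cell held 88.6% of the Xcl1 UMIs in female room air, 88.6% in female hyperoxia and 94.1% in male room air. Pclaf was found in 18, 18, 10 and 6 T cells. Of the 18 memory and effector genes tested, 9 had an unadjusted p under 0.05, all higher in females, where 2.56% of all genes tested had one in either direction, and the median log2 difference was 0.89. It was 1.67 between the room air libraries and 0.16 between the hyperoxia libraries, so it was larger between the libraries that include female room air. Of 9 cycling genes 4 had an unadjusted p under 0.05, all higher in females. Klra7, a receptor of the Ly49 family, was at 18.4, 6.87, 2.14 and 0.807 CPM (log2 difference 2.97, SE 0.38, edgeR adjusted p 0.625), and Cd163l1, a scavenger receptor of γδ T cells, at 54.4, 19.1, 4.80 and 8.48 CPM (2.21, SE 0.52, edgeR adjusted p 0.942). Ly6d, a gene of early lymphocytes, was lower in females at 5.10, 1.77, 24.3 and 10.5 CPM (−2.50, SE 0.27, edgeR adjusted p 0.286), and Ly6c1, a surface protein gene, at 20.1, 38.3, 68.1 and 54.0 CPM (−1.13, SE 0.33). For these 4 genes both female libraries lay on 1 side of both male libraries, as did 40.9% of all genes tested.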

How the data were processed

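Droplet single-cell RNA sequencing of lung gave the 4 day 21 libraries used here. The matrices deposited by the authors hold a count of UMIs for each gene in each barcode, made with Cell Ranger 6.0.0 and Seurat 4.1.1 on mm10 per the submitters' processing notes, while the file headers name Cell Ranger 7.0.1. Cell classes were the authors' deposited annotation; their doublet treatment is not given in the sources used here. The libraries held 122173482 to 137510028 UMIs. All barcodes of the class were kept; doublets were called with Scrublet in scanpy 1.11.5 and left out only as an alternative.

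The members and gene lists were chosen with earlier results of these data known. UMIs were summed over T cells per library and fitted with edgeR 4.0.16 (R 4.3.3; filterByExpr, TMM, quasi-likelihood test, treatment and sex as terms, 1 residual degree of freedom, Benjamini-Hochberg adjusted p under 0.05), with DESeq2 1.42.0 as an alternative; the code was tested on simulated data. The p-values rest on the residual among these 4 pools only, in which spread between pools cannot be told apart from a different response of the sexes. Each SE is the size of the fitted log2 change divided by the square root of the quasi-likelihood F statistic, so it comes from the same test as the p-value. Values within a sex are log2 ratios of CPM plus 1. Intervals (95%) are exact binomial for shares and exact Poisson for sums, and hold counting error alone. Cells were clustered on 2000 variable genes and 20 principal components (Leiden, resolution 1). Named genes were all that were called, up to 10 each way, or, where fewer than 10 were called each way, the 10 largest changes each way with unadjusted p under 0.05, 1 direction in both sexes (or treatments) and 20 UMIs or more in both libraries on the higher side; in pathway lists, the 2 members with the smallest p. Mitochondrial, ribosomal protein, haemoglobin, immunoglobulin and receptor variable genes were left out, as were Xist, Tsix and Y-linked genes for hyperoxia. Marker genes, the glucocorticoid list members, Slc15a2 and other list members were described by role. Gene positions came from GENCODE on GRCm38, which held 99.6% of the genes. An item of the planned naive markers is not reported here, so the naive gate used Ccr7 alone and the lists were run without the item, a change made after the data were seen. Alternatives were other scaling, filters, depths, gates, cells and left-out libraries.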

Additional observations from a re-analysis of the deposited data

Results flagged for a closer look

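Each result below moved in opposite directions in the sexes with counting intervals that did not meet, and none of these differences was tested, since each sex had 1 library per treatment. Female room air is on 1 side of every one. The values are the change after hyperoxia in females minus that in males. For the share of T cells it was 12.15 percentage points (7.59 among females, −4.56 among males), and for T cells with neither Cd4 nor Cd8 it was −11.41 points (−7.49 and 3.92). That second difference was smaller with at least 2 UMIs per marker (−0.53 and 3.21), at 2000 UMIs per cell (−2.55 and 3.63) and at 5000 (−6.79 and 3.12), and at each of these the intervals of the sexes met.

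For the summed marker lists the values are log2 ratios. For T cell subset lists the sum was lower after hyperoxia in females and higher in males: memory and effector genes differed by −1.49, tissue residence genes by −0.8324, Th2 and ILC2 genes by −2.524, regulatory T genes by −2.493 and NKT genes by −3.02. The Th17 list differed by −6.311, with Il17a read only in female room air (17 UMIs). Checkpoint genes differed by −1.16 and clock genes by −0.584. Lists of other cell types moved the same way, with −0.9739 for myeloid and −4.717 for neutrophil genes. With doublets left out, the median log2 change of the neutrophil genes in males was 0.33, against 4.002 with all T cells, and that of the myeloid genes 0.09, against 0.61. Other lists went the other way, with 0.2587 for T cell genes, 0.2362 for interferon gamma response genes and 0.2943 for MHC class I genes.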

How the results depend on the processing

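With hyperoxia, where edgeR called 0 genes on all T cells, the count was 6 in CD4 only cells, 22 in CD8 only cells, 1 when only female cells with Xist were used, 1 with DESeq2, 16 without doublets and 69 with no filter on low counts. Among alternatives added after seeing the data it was 56 and 99 in naive-marked cells with and without Nkg7 in the gate, 5 without clusters led by other cell types and 12 without those, thymocyte and memory clusters. The weight of the spread shared by all genes (prior degrees of freedom) was 4.39 on all T cells, 23.3 without doublets and 45.5 in CD8 only cells. The naive-marked fits, the fit without all these clusters and the fit with no filter used 1 common spread for all genes. For hyperoxia and for sex, the counts therefore do not compare cells or filters alone. Leaving out 1 library gave 0 to 916 calls (321 without female room air, 916 without male room air and 0 without either hyperoxia library). Equal cell numbers, upper-quartile scaling, the fit without the cluster of thymocyte and cycling genes and the fit with no replicate block for sex gave 0. The labels give no replicate numbers, so sex is the only pairing in the hyperoxia comparison. The sex comparison with no replicate block for treatment also called 5 genes, with Xist gained and Tsix lost, and DESeq2 called 5, of which 3 were called by edgeR. For sex the count was 22 in CD8 only cells, 39 without doublets, 15 and 50 in naive-marked cells with and without Nkg7 in the gate, 146 with no filter, 11 and 13 without the clusters above, and 5 to 167 with 1 library left out (167 without female hyperoxia).

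S100a4 had a log2 change of −2.85 to 1.79 with 1 library left out, reversed and called at 1.79 without female room air, and called at −2.85 without male room air. The share of T cells after hyperoxia changed in females by 5.09 points over all barcodes, 16.7 of immune and 16.5 of lymphoid cells, and in males by −2.85, −0.88 and −5.70 points. The naive-marked difference in females was 14.9 points at 2000 UMIs per cell, 34.9 without Nkg7, and 8.14 and 33.0 by clusters at resolutions 0.5 and 1.5, against 26.1. The memory-marked difference in females was −8.14 and −33.0 points by clusters at resolutions 0.5 and 1.5, against −21.3, and in males −2.04 and −3.79 points at resolutions 0.5 and 1, against 1.45. The cause of these shifts was not tested. The planned fit on cells without any marker of another lineage was not run, because too few cells were left in each library.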
